A study of Caenorhabditis elegans with 2 samples.

Results

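The actin and tubulin genes described here were 10 genes of Caenorhabditis elegans, chosen by name. They were the actin genes act-1, act-2, act-3 and act-4, the alpha-tubulin genes tba-1, tba-2 and tba-4, the beta-tubulin genes tbb-1 and tbb-2, and the gamma-tubulin gene tbg-1. All 10 were found among the 19973 protein-coding genes of the Ensembl annotation of WBcel235. At each gene the binding of a tagged protein, T26A8.4, was read from peak lists of chromatin immunoprecipitation sequencing (ChIP-seq), an assay that finds the DNA to which a protein is attached. The worms were strain OP692, which carries the integrated transgene wgIs692, in which T26A8.4 is fused to TY1, EGFP and 3xFLAG tags, along with unc-119(+), on the unc-119 (tm4063) mutant background. They were whole L4 larvae of 48 hours, grown from L1 larvae that had been starved after bleaching. The series holds 1 group of 2 libraries, which the labels number as biological replicates 1 and 2. The immunoprecipitation used an antibody to GFP per the sample descriptions, while the antibody field of the labels gives only the name of the target. Every library carried the transgene, and an untagged library is not analysed here. Whole larvae were used, so the tissue in which a site was occupied cannot be told.

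Actins polymerise into filaments, which form the thin filaments of muscle and the cortex of other cells. Alpha- and beta-tubulin pair into the dimer from which microtubules are built, and gamma-tubulin sits in the complex at centrosomes and other sites from which microtubules start to grow. In C. elegans, act-1, act-2 and act-3 lie together in a cluster and act-4 lies apart from them. The gene pairs tba-1 and tba-2, and tbb-1 and tbb-2, supply most of the tubulin of the early embryo.

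The data were lists of peaks, each with an interval, a summit, a peak signal and a score. Peak signal is the authors' own value, on a scale that none of the labels or file listings state, and was compared within a list only. The combined set, a series-level list over both replicates thresholded on the reproducibility of peaks, held 2993 lines with a median signal of 122.51. Each replicate also had a ranked list, which keeps weak regions (70405 lines in replicate 1 and 66732 in replicate 2), and a thresholded list (1933 and 2141 lines). Some lines of the combined set, such as that at the act-4 promoter, had no peak in the ranked list of 1 replicate. A line of the combined set was therefore not always found in both replicates. The lowest score in the thresholded lists was 830, of a maximum of 1000. Bound genes are those with a combined-set summit in the promoter window, which begins 1000 bp before the annotated gene start and ends 200 bp after it. The read depth behind the peaks is unknown. With 1 group and 2 libraries no test between groups could be made, so values of both replicates stand beside each other and an SD covers 2 values. T26A8.4 itself had no summit in its own promoter window in the combined set or in either ranked list.

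Of the 10 genes, 4 were bound: the alpha-tubulin gene tba-2, the gamma-tubulin gene tbg-1, the beta-tubulin gene tbb-1 and the actin gene act-4. Over all protein-coding genes 1410 were bound, which is 7.06%. In the combined set the signal was 490.8 at tba-2, 221.6 at tbg-1, 150.9 at tbb-1 and 87.3 at act-4, so the first 3 lay above the median of that set and act-4 lay below it. The thresholded list of replicate 1 held a window summit for 3 of the 10 genes, against 4.84% of all genes, and that of replicate 2 for 3 of them, against 5.50%. In both replicates the 3 were tba-2, tbb-1 and tbg-1. Summits in the ranked lists, weak regions included, fell in the window of 9 of the 10 in replicate 1, against 48.4% of all genes, and of 9 in replicate 2, against 45.3%. The gene without one was act-4 in replicate 1 and tba-4 in replicate 2.

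**Figure D1:**
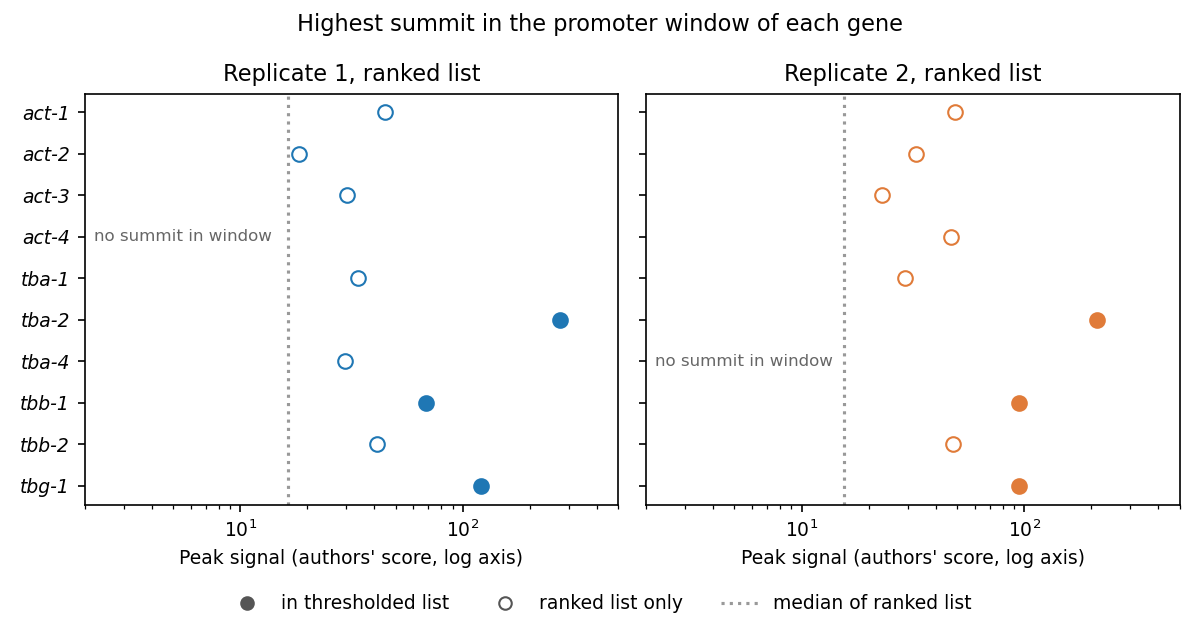
The x axis is the signal of the highest ranked-list summit in the promoter window of each gene (authors' score, log axis), with replicate 1 on the left and replicate 2 on the right. Filled points are in that replicate's thresholded list, open points in its ranked list only, and the dotted line is the median of the ranked list; tba-2, tbb-1 and tbg-1 are filled in both panels, and act-4 (replicate 1) and tba-4 (replicate 2) have no point.

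The highest window signal of each gene was also given as a percentile, the percent of the 19973 genes whose own highest window signal was lower, with genes without a summit set to 0. More than 50% of all genes had no summit in a ranked list, so the median window signal of all genes was 0 in both replicates. That of the 10 genes was 37.5 in replicate 1 and 47.3 in replicate 2. Averaged over the replicates, tba-2 stood highest at 99.5 ± 0.2 (SD, n = 2), followed by tbg-1 at 97.9 ± 0.7 and tbb-1 at 96.6 ± 1.0. Values of tba-2 did not overlap those of tbg-1, while the lower value of tbg-1 and the higher value of tbb-1 were both 97.4. Then came act-1 at 92.6 ± 0.5 and tbb-2 at 91.7 ± 1.5, whose replicate values overlapped each other and lay below those of tbb-1. Below them stood tba-1 at 85.5 ± 2.1, act-3 at 80.4 ± 4.4 and act-2 at 77.4 ± 13.3, and the values of act-2 overlapped those of both act-3 and tba-1. The order ended with act-4 at 46.3 ± 65.4 and tba-4 at 41.4 ± 58.6, for each of which 1 replicate had no window summit, so that their place in the order is not fixed by these data. The order depends on the window. In one from 500 bp before to 100 bp after the gene start, tbg-1 stood at 79.4, below tba-1 (90.1), act-1 (89.5), act-3 (86.9) and act-2 (85.2), and tbb-2 at 46.7, while tba-2 (99.6) and tbb-1 (97.5) still stood highest. In one from 2000 bp before to 500 bp after it, tba-1 stood at 98.7.

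The beta-tubulin genes differed in the signal at their promoters. The window of tbb-1 (III, 10740868 to 10742432, minus strand) had a signal of 68.4 in replicate 1 and 94.4 in replicate 2, and that of tbb-2 (III, 4015910 to 4017627, minus strand) had 41.1 and 47.8. The ratio of tbb-1 to tbb-2 was 1.66 in replicate 1 and 1.97 in replicate 2. In the narrower window it cannot be given for replicate 2, whose tbb-2 summits both lie outside it. At tbb-1 both replicate summits had the maximum score of 1000, and at tbb-2 the scores were 145 and 397. The 2 replicates placed the tbb-1 summit 22 bp apart, at -260 and -238 bp from the gene start, and the combined set placed it at -207 bp. The tbb-2 summits were 153 bp apart, at -385 bp in replicate 1 and -538 bp in replicate 2, and the replicate 2 summit lay inside the ncRNA gene C36E8.10. The tbb-1 peak lies between divergent genes. The next gene upstream, rib-2, which encodes a glycosyltransferase of heparan sulfate synthesis, starts 377 bp away on the opposite strand, and the same summit lay at -171 bp from its start. These data cannot assign the peak to one of the pair. Shown first is the sequence around the bound summit of tbb-1 (chrIII:10742539-10742739), and then that around the strongest replicate 2 summit of its unbound paralogue (chrIII:4018065-4018265), both on the minus strand of WBcel235 (RefSeq), 5′ to 3′ along the gene. Capitals mark matches to motifs that are described further on.
tbb-1 promoter summit: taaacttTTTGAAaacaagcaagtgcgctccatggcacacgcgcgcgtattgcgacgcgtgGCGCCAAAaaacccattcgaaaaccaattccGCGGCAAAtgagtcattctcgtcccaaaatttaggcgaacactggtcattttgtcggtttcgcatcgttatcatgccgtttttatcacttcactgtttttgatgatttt
tbb-2 promoter summit, replicate 2: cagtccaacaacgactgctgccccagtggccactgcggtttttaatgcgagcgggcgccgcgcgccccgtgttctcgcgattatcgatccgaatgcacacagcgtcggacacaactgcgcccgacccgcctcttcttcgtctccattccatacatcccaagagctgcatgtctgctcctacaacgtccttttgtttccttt

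The tbb-1 window holds the letters TTTNNCGC in 2 copies on the strand opposite to the gene, at -246 and -215 bp from the gene start, which is -39 and -8 bp from the summit. Of all 2993 combined-set summit windows, 17% hold TTTNNCGC, against 13.7% of the stretches of the same length upstream of all gene starts. The tbb-2 window from replicate 2 holds none of the 8 motifs searched, and the one from replicate 1 holds TTTCAG once. GC content was 44.8% at the tbb-1 summit, close to the median of 43.8% over all combined-set windows, and 57.7% (replicate 2) and 35.8% (replicate 1) at the tbb-2 summits. The median over the upstream stretches was lower, at 32.8%. The shares of windows and stretches with a motif, here and below, were not adjusted for this difference in base composition.

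The gamma-tubulin gene tbg-1 (III, 9626536 to 9629154, minus strand) had the second-highest promoter signal of the 10, but far from its own start. Replicate 1 gave 120.7 and replicate 2 gave 94.9, both with the maximum score. The summits lay at -831 and -821 bp, 10 bp apart, and the combined set placed the summit at -818 bp. Between that summit and tbg-1 lies rpac-19, which encodes a subunit shared by RNA polymerases I and III. It is on the same strand and its annotated end is 91 bp from the start of tbg-1. The summit was at -87 bp from the start of rpac-19. Near the start of tbg-1 itself the ranked lists held a summit of signal 23.7 at -4 bp in replicate 1 and of 12.5 at -16 bp in replicate 2. Replicate 2 also had one of signal 42.5 and score 297 at a position in the first intron, just beyond the downstream edge of the window. All were below the signals at -831 and -821 bp. With only the nearest gene counted for each summit, tbg-1 and tbb-1 were no longer among the bound genes. The sequence around the combined summit (chrIII:9629872-9630072, minus strand, 5′ to 3′) is shown because it lies at the start of the upstream gene.
tbg-1 upstream summit: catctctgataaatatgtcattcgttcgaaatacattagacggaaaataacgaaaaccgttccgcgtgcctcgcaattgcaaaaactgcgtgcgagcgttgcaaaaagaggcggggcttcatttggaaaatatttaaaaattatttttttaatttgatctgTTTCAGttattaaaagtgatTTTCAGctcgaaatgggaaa

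Its capitals are 2 copies of TTTCAG, at -757 and -737 bp, between the summit and the start of rpac-19. TTTCAG is the sequence at which C. elegans introns and trans-spliced leaders commonly join the next exon. It was in 20.7% of combined-set windows and 36.9% of upstream stretches. At 35.8%, GC content here was the lowest of the promoter windows of the 4 bound genes.

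A further pair of combined-set summits lay inside tbg-1, near its end. The stronger one, at +2312 bp in the last exon, had a signal of 101.8. The ranked lists placed summits 49 bp from it in replicate 1 (signal 51.6, score 783) and 47 bp from it in replicate 2 (55.5, score 596). Neither score reached the 830 of the thresholded lists, although the summit was kept in the conservative set. The other, at +2098 bp in the last intron, had a signal of 9.0, with 8.6 in replicate 1 and 14.7 in replicate 2, and was not in the conservative set.

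Actin gene act-4 (X, 4960621 to 4964413, plus strand) had 3 combined-set summits in its window and body, as many as tbg-1 and more than the other genes. In its promoter window the combined summit was at -68 bp, with a signal of 87.3 and a score of 933, and ranked 2484 of 2993. Replicate 1 had no ranked summit in this window. Replicate 2 had one at -29 bp, of signal 46.9 and score 708, which was not past the threshold. The conservative set did not hold the peak either, so the call of act-4 as bound rests on the combined set alone. Stronger signal lay in the first intron, at +1645 bp (103.9) and +1867 bp (93.3) in the combined set. Here both replicates had a summit, at +1820 bp in replicate 1 (signal 53.0, score 906) and at +1827 bp in replicate 2 (67.0, score 800). These lay 47 and 40 bp from the second combined summit, and replicate 1 alone had it in its thresholded list. They were also the nearest replicate summits to the first, stronger combined summit, at 175 and 182 bp from it. A shorter act-4 transcript, M03F4.2b.1, starts in the second exon of the longer one, and the +1867 bp summit lay at -387 bp from that start. The promoter sequence up to the last base before the gene start (chrX:4960453-4960620) and the intron sequence (chrX:4962388-4962588) are both given on the plus strand, to show how the base composition and motifs differ between the sites.
act-4 promoter summit: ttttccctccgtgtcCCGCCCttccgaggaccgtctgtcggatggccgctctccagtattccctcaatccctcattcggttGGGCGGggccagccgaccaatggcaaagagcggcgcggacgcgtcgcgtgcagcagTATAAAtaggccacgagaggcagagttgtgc
act-4 first intron summit: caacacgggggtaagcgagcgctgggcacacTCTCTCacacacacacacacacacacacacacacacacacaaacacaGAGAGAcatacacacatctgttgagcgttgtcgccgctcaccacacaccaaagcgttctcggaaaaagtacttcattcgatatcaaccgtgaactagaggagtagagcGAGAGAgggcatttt

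In the act-4 promoter the capitals mark TATAAA, the TATA box, at -31 bp from the gene start, and GGGCGG at -87 bp and, on the opposite strand, at -153 bp. TATAAA was in 12.7% of combined-set windows and in 30.5% of upstream stretches, while GGGCGG was in 9.66% and 6.01%. The full promoter window, which runs into the first exon, also has TTTCAG at +24 bp. In the intron window the capitals mark GAGAGA at +1845 and +1953 bp and, on the opposite strand, at +1798 bp, around a run of CA repeats. GAGAGA was in 30.5% of combined-set windows and in 16.4% of upstream stretches. The promoter window had 60.2% GC, above the upper quartile of 49.3% for combined-set windows, and the intron window 50.7%. Around the other intron summit, at +1645 bp, the only motif was a run of T on the opposite strand, which 11.5% of combined-set windows and 26.4% of upstream stretches hold, and GC content was 48.8%.

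**Figure D2:**
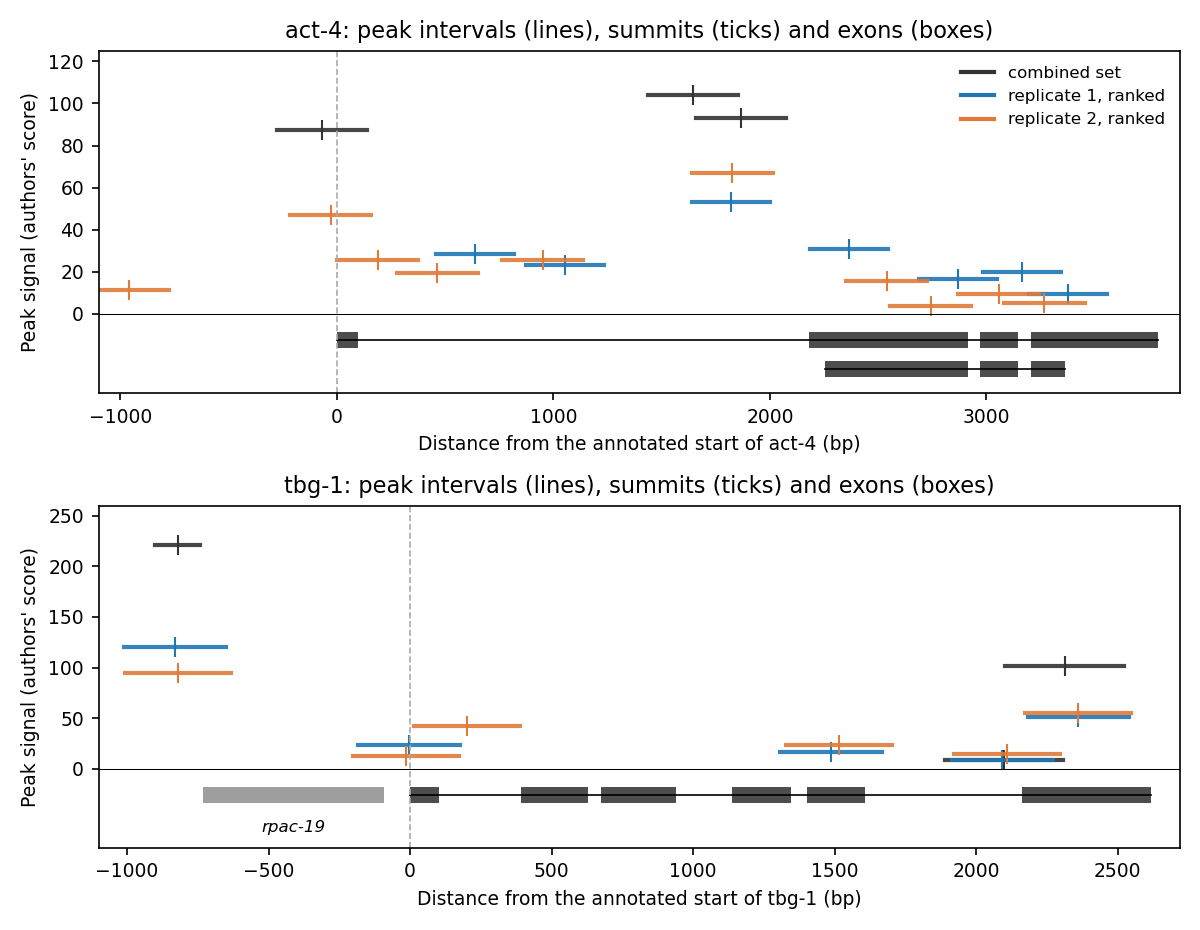
Each horizontal line is a peak interval, with its summit as a tick, placed by its distance from the annotated gene start (x axis, bp) and its signal (y axis, authors' score), for the combined set and the ranked lists of replicates 1 and 2 at act-4 (top) and tbg-1 (bottom). Boxes below 0 are exons of the annotated transcripts; both replicates reach their highest signal at act-4 in the first intron (53.0 and 67.0), and at tbg-1 beyond rpac-19 (120.7 and 94.9).

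The other actin genes, act-1, act-2 and act-3, were not bound. They lie within 11071690 to 11082415 on V, act-1 on the plus strand and the others on the minus strand, and act-1 and act-2 are divergent with 2897 bp between their starts. The act-1 window had signals of 44.8 in replicate 1 and 48.8 in replicate 2, but 471 bp apart, at -127 and -598 bp. Replicate 2 had a second summit at -128 bp, with a signal of 23.0, that matched the replicate 1 position. At act-3 (30.2 in replicate 1, 23.1 in replicate 2) the summits were 7 bp apart, at -327 and -334 bp, so the replicates agreed on the place of a weak region. At act-2 the signals were 18.4 and 32.7, and the summits were 54 bp apart. The scores of these window summits were 208 and 559 at act-1, 126 and 78 at act-2, and 63 and 30 at act-3, all below the 830 of the thresholded lists. The 30 at act-3 in replicate 2 was the lowest score of any line in that ranked list. The act-2 summits of both replicates lay inside the ncRNA genes T04C12.18 and T04C12.24, and the -598 bp summit of act-1 lay inside T04C12.16 and T04C12.25. The replicate 1 window of act-1 was the only one of these summit windows with CACGTG, at -38 bp from the gene start, a motif in 7.68% of combined-set windows and 4.23% of upstream stretches.

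A set of 3 combined-set summits fell in the same cluster outside the promoter windows and bodies of the actin genes. One was 258 bp past the end of act-1 (V, 11082463 to 11082882), inside the ncRNA gene T04C12.29, with a signal of 134.4. The replicates gave it 80.7 (score 1000) and 57.2 (score 921), both past the lowest thresholded score. Another lay 410 bp past the end of act-2, which is at -1869 bp from the start of act-3, with a signal of 118.4 in the combined set, 74.1 in replicate 1 (score 1000) and 48.1 in replicate 2 (score 82). The last lay at -1353 bp from the start of act-3, inside the ncRNA genes T04C12.15 and T04C12.21, with a signal of 89.7 in the combined set and 58.3 in replicate 1, and replicate 2 had no peak over it. These ncRNA genes, and the genes cox-5B, pbs-2, drsh-1 and C36E8.4 that neighbour the tubulin genes, were named after their values were seen.

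Among the alpha-tubulin genes, tba-2 had the strongest promoter peak of the 10 genes and its paralogue tba-1 a weak one. The tba-2 window (gene at I, 12964674 to 12966795, minus strand) had a signal of 274.6 in replicate 1, ranked 87 of 70405, and 211.4 in replicate 2, ranked 154 of 66732. The tba-1 window (gene at I, 9785781 to 9787624, minus strand) had 34 and 29.2. The ratio of tba-2 to tba-1 was 8.08 in replicate 1 and 7.24 in replicate 2. In the wider window the tba-1 value is that of a peak at a neighbouring gene (cox-5B) and this ratio does not apply. The tba-2 summits were 30 bp apart, at -151 and -121 bp, and the combined interval ran from 12966790 to 12967093 with its summit at -129 bp. The gene upstream, pbs-2, which encodes a proteasome subunit, ends 420 bp away on the same strand, and no other protein-coding promoter window held this summit. The summit lay at -653 bp from the start of the shorter tba-2 transcript. Its window held GAGAGA at -216 bp, TTTGAA at -177 bp and, on the opposite strand, TTTNNCGC at -108 bp, and had 41.8% GC. TTTGAA was in 32.0% of combined-set windows and 50.1% of upstream stretches.

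At tba-1 the replicates placed their strongest window summits 37 bp apart, at -354 and -317 bp, with scores of 172 and 99. A strong combined peak, of signal 312.4, lay just beyond the edge of the window at -1057 bp. It was at -44 bp from the start of cox-5B, which encodes a cytochrome c oxidase subunit and runs in the opposite direction, and it had signals of 157.1 in replicate 1 and 167.9 in replicate 2. With peak overlap in place of the summit, or with a window out to 2000 bp, tba-1 counts as bound through this peak. The third alpha-tubulin gene, tba-4 (II, 10918706 to 10920211, plus strand), had a window summit in replicate 1 only, at -80 bp with a signal of 29.5 and a score of 151. No combined-set summit lay in its body or window, or in the surroundings plotted in the map of combined-set summits, and it was the only one of the 10 for which that held.

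Inside the gene bodies, combined-set summits were found at act-4 and tbg-1, 2 of the 10, against 4.93% of all genes. The thresholded list of replicate 1 had one at act-4 (against 3.16% of all genes) and that of replicate 2 at none of the 10 (against 3.34%). Gene bodies differ in length, and these shares were not adjusted for it. Lengths were 3793 bp at act-4, 2619 bp at tbg-1 and 1364 to 2809 bp at the other genes. In the ranked lists the highest body signal at the other genes was between 3.3 (act-1) and 35.6 (act-2) in replicate 1 and between 11.6 (act-1) and 37.3 (act-2) in replicate 2. At act-4 it was 53.0 and 67.0, and at tbg-1 51.6 and 55.5. At act-2 the body signal was higher than the window signal in both replicates, with 35.6 against 18.4 in replicate 1 and 37.3 against 32.7 in replicate 2. At tba-2 it was far lower, at 29.5 and 21.3.

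Within 1 to 500 bp past the annotated gene end, a combined-set summit was found at act-1, act-2, tba-1 and tbb-2, which are 4 of the 10 genes, against 4.12% of all genes. All 4 were genes whose promoter windows were not bound, which holds for most genes, since 7.06% of all protein-coding genes were bound. This stretch was looked at after the values were seen. The replicates' own thresholded lists had such a summit at act-1, act-2 and tbb-2 in replicate 1 (3 of 10, against 2.58%) and at act-1 and tbb-2 in replicate 2 (2 of 10, against 3.05%). At tbb-2 the stronger of 2 such summits lay 373 bp past the end (III, 4015519 to 4015631), inside the protein-coding gene C36E8.4, with a signal of 152.3 in the combined set, 80.0 in replicate 1 and 78.9 in replicate 2, both replicates with the maximum score. The other, 156 bp past the end, had a signal of 46.1. At tba-1 they lay 131 and 396 bp past the end, inside drsh-1, which encodes the Drosha nuclease of microRNA processing, with signals of 63.2 and 72.0. The first was at +74 bp from the start of drsh-1. Replicate 1 gave it 60.1 and replicate 2 25.8, with scores of 794 and 68. Over the summit 396 bp past the end, replicate 1 had no peak and replicate 2 had one of signal 21.9 and score 77.

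**Figure D3:**
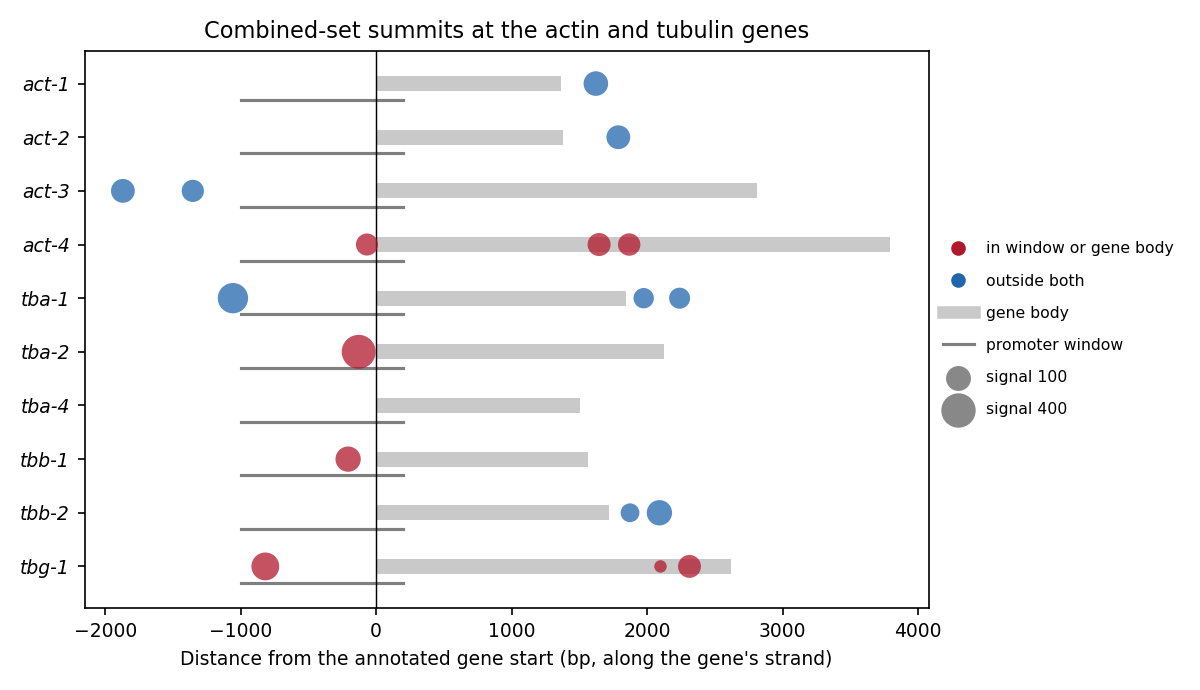
Each circle is a combined-set summit, placed by its distance from the annotated start of the gene (x axis, bp along the gene's strand), with area growing with signal; the region drawn reaches 2000 bp upstream of the start and 500 bp past the gene end. Red circles lie in the promoter window (line) or gene body (bar), blue circles in neither: tba-2, tbg-1, tbb-1 and act-4 have a red circle in the window, act-1, act-2, tba-1 and tbb-2 a blue one past the end, and tba-4 none.

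Some of the actin and tubulin genes share long stretches of sequence with relatives, and a read from a stretch found more than once cannot be placed. In the reference, the share of 50-base words that occur once in the genome, on either strand, was 100% in the promoter windows of 9 of the 10 genes and 88.5% in that of act-1. In gene bodies it was 100% at tba-1, tba-2, tbb-1 and tbg-1, 99.5% at tbb-2 and 97.1% at act-4. It was lower at tba-4 (82.2%), act-2 (73.7%) and act-3 (59.1%), and only 13.8% at act-1, where 182 of 1315 words were unique. The sources used here do not give how reads with several matches were treated. The body signals of act-1, act-2 and act-3 are uncertain for this reason, and the act-1 body held the lowest body signal of the 10 in both replicates. Whether repeated sequence lowered it was not tested.

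**Figure D4:**
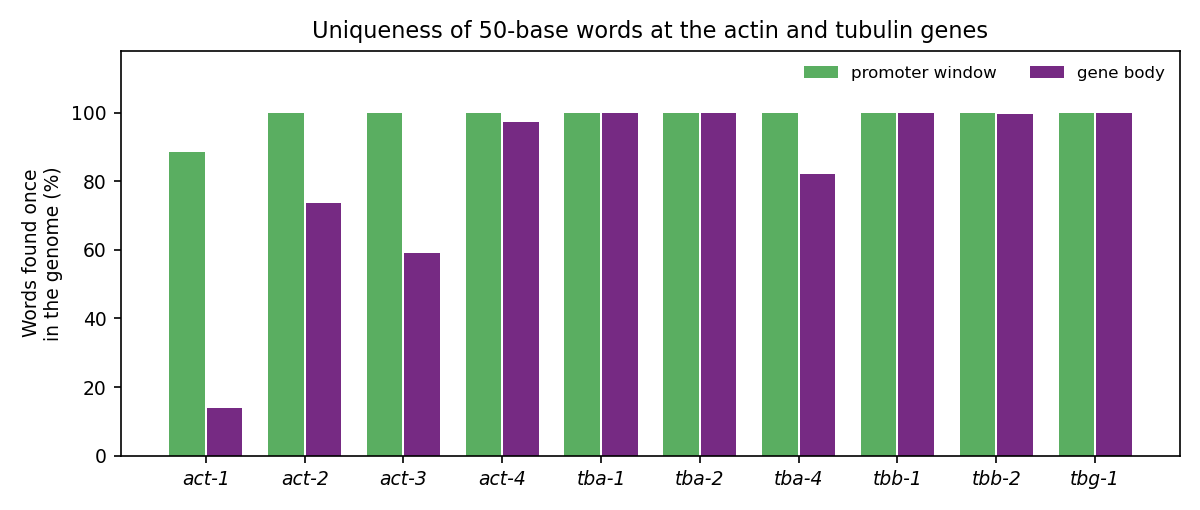
Bars give the percent of 50-base words found once in the WBcel235 genome in the promoter window (green) and the gene body (purple) of each gene (x axis). All windows but that of act-1 (88.5%) reach 100%, while the body of act-1 stands at 13.8%.

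The bound genes whose signals in both replicates came closest to those of each member were looked up among the 1376 bound genes that had a window summit in both ranked lists. Distance was taken on the log2 scale of the signals of both replicates. Nearest to tba-2 were tos-1 (265.7 in replicate 1, 230.4 in replicate 2) and vps-39 (266.7, 233.9), which encodes a subunit of a vesicle tethering complex. Nearest to tbb-1 were rib-2, which shares its peak, and prmt-5 (67.8, 95.5), an arginine methyltransferase gene. Nearest to tbg-1 were rpac-19, which shares its peak, and hrpu-2 (117.7, 93.8). For act-4 there is no such neighbour, since it lacked a window summit in replicate 1.

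Other genes that build, fold and move actin and tubulin polymers were bound to different extents. Of 164 such genes in 8 lists, 29 were bound (17.7%, against 7.06% of all protein-coding genes). In the thresholded list of replicate 1, 19 had a window summit (against 4.84% of all genes), and in that of replicate 2, 20 (against 5.50%). Genes for the folding of actin and tubulin had 7 of 21 bound (33.3%), led by cct-8 (signal 991.2) and cct-1 (547.8), subunits of the CCT chaperonin that folds both proteins, and by the prefoldin gene pfd-1 (273.4). The signals of cct-8 in the replicates, 497.4 and 497.5, were above those of tba-2 in both. Microtubule motor genes had 9 of 31 bound (29.0%), led by dlc-1 (313.5), a dynein light chain, klc-1 (274.6), a kinesin light chain, and dnc-1 (183.2), a dynactin subunit. The remaining lists were lower. Arp2/3 and WAVE genes, which nucleate branched actin, had 2 of 13 bound (15.4%), wve-1 (524.1) and gex-3 (131.5). The list of actin and tubulin genes other than the 10, which includes the actin-related gene arp-1, had 2 of 14 bound (14.3%). These were tba-7 (91.4) and arp-1 (75.7), neither of them in a replicate's own thresholded list. The list for the gamma-tubulin complex and the centrosome had 2 of 16 bound (12.5%), sas-4 (115.2) and ptrn-1 (100.6). Of these, ptrn-1 encodes a protein that binds microtubule minus ends and is part of neither structure. Actin regulators had 3 of 27 (11.1%), among them cap-2 (663.8), a capping protein subunit, unc-60 (137.3), a cofilin, and ani-1 (88.2), an anillin. Microtubule regulators also had 3 of 27 (11.1%), cls-2 (392.8), a CLASP, the spastin gene spas-1 (263.9) and atat-2 (92.4). The highest cls-2 signal inside the window was 28.4 in replicate 1 and 185.4 in replicate 2. The combined summit lay at -978 bp, near the upstream edge of the window. Replicate summits beyond that edge were not looked at for this gene, and the values come from different lists. How far the replicates differ at this peak was not tested. Muscle thin filament genes, the partners of actin in muscle, had 1 of 15 (6.67%), cpn-3 (182.2), a share near that of all genes. As at tbb-1 and tbg-1, several of these summits also lay in the window of another protein-coding gene, among them those of cct-8, cct-1, pfd-1, cap-2, wve-1, dlc-1, klc-1 and cls-2.

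**Figure D5:**
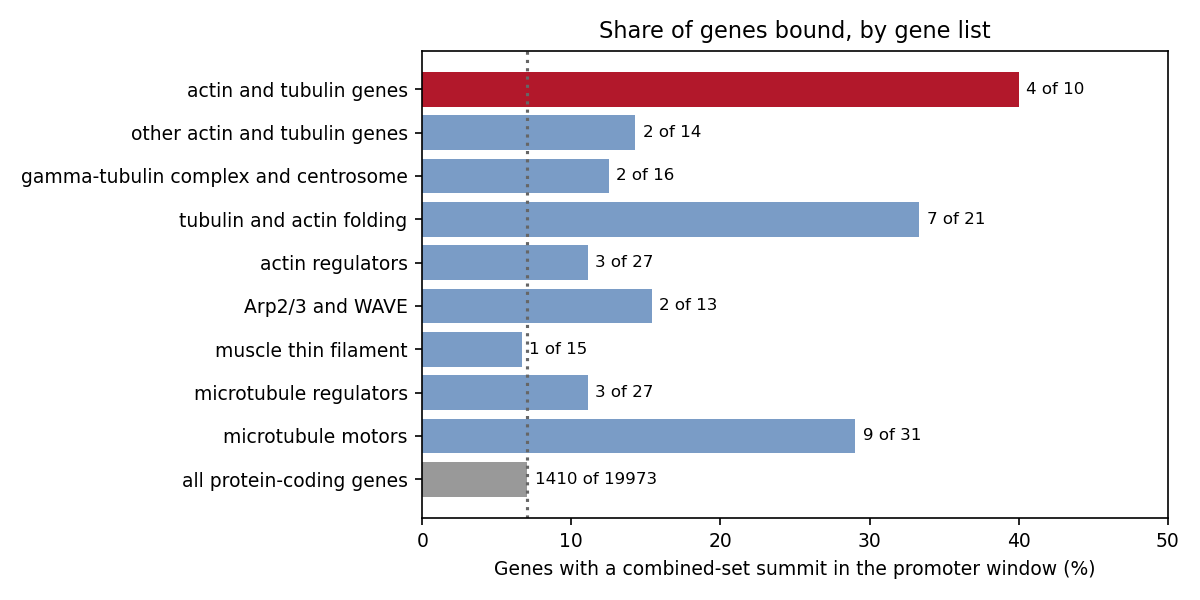
Bars give the percent of genes in each list (y axis) with a combined-set summit in the promoter window, with the counts beside them, and the dotted line is the share of all protein-coding genes (7.06%). The 10 actin and tubulin genes (4 of 10) and the folding list (7 of 21) have the longest bars, and the muscle thin filament list (1 of 15) ends near the line.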

How the data were processed

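Peak lists of both replicates were analysed as the authors deposited them, on ce11, which is the WBcel235 assembly, per the file listings with the samples. Peak signal and the integer score are scores that the authors' software gave each deposited peak. The summit offset is in bp. Lists were ranked by, or thresholded on, the irreproducible discovery rate (IDR), per the file listings. DNA had been sonicated to 200 to 800 bp, per the labels. No source used here names the aligner or the peak caller. The control library named in the labels, and the ranked lists of the whole series, were not used here. Depth is unknown, so no intervals are given.

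Summits were placed on the Ensembl release 115 annotation, and windows, gene bodies and motifs were read on the RefSeq WBcel235 sequence. Sequence windows ran from 100 bp before to 100 bp after a summit. The 8 motifs were searched on both strands. One was the repeat GAGAGA, another the E box motif CACGTG, others the TATA box TATAAA and the splice acceptor TTTCAG. The GC box was spelled GGGCGG. The remaining motifs were TTTNNCGC, then the letters TTTGAA, and lastly a run of 8 T. Positions give the first base of a match along the gene, with the annotated start as 0, and no match overlapped one of another motif in the windows of the bound genes. The members, lists, motifs and windows were chosen with earlier results of these data known. Beside the 10 genes, the genes named were those whose window or body held a counted summit, the 3 bound genes of highest signal in each list (all where 5 or fewer were bound), the 2 bound genes nearest in signal to each bound member, and T26A8.4. Of 167 listed genes 3 were not found in the annotation. No test was run, since the design has 1 group, and counts are set beside the share of all protein-coding genes. Alternatives were other peak sets, windows, overlap rules, summit windows and word lengths. The tools were pandas 2.3.3 and NumPy 2.4.6 under Python 3.11.15, with SciPy 1.17.1, and Matplotlib 3.10.9 for the plots, and the window count was tested on simulated data.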

Additional observations from a re-analysis of the deposited data

How the results depend on the processing

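The count of bound actin and tubulin genes was 4 (against 7.06% of all genes). It was 3 in the conservative set (against 6.63%), in the 50% of lines with the highest signal (4.54%) and in the thresholded lists of replicate 1 (4.84%) and replicate 2 (5.50%), where tba-2, tbb-1 and tbg-1 remained. It was 3 in a window of 500 bp upstream to 100 bp downstream (5.16%), which loses tbg-1, and 6 in one of 2000 bp to 500 bp (10.1%). Only the nearest gene of each summit gave 2 (5.49%), act-4 and tba-2, since the tbb-1 and tbg-1 summits lie closer to other gene starts. Any overlap of a peak with the window gave 5 (7.97%). Lists of equal length cut from the ranked lists, chosen after seeing the data, gave 3 in replicate 1 (6.93%) and 5 in replicate 2 (7.46%).

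Gene-body summits were found at 2 genes (against 4.93% of all genes). They were found at 0 in the 50% of lines with the highest signal (2.34%), at 0 to 1 with 1 replicate left out, and at 6 when any overlap counted (7.64%). Summits just past the gene end were found at 4 genes (4.12%), at 2 in the 50% of lines with the highest signal (2.16%), and at 2 to 3 with 1 replicate left out. The 29 bound pathway genes (against 7.06% of all genes) became 19 in the narrower window (5.16%). With 1 replicate left out they became 19 to 20 (4.84% and 5.50%). The 16 pairs of a motif and a summit window of the bound genes became 7 with windows reaching 50 bp on each side of the summit. Unique words over all gene bodies made up 85.2% at 50 bases and 83.6% at 36. The median percentile of the 10 genes, 90.7, was 88.5 to 90.6 under other windows and ranking within chromosomes, but single genes shifted. By more than their SD over the replicates, 5 of the 10 moved in the narrower window (tbb-2 to 46.7, tbg-1 to 79.4), 6 in the wider window (tba-1 to 98.7) and 7 when ranked within chromosomes. Apart from the nearest-gene count and counts from fewer lines or smaller windows, the cause of these shifts was not tested. No paired analysis was possible because the series has 1 group. The unknown depth limits what can be said of weak regions: a missing summit does not show absence of binding.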
